A study of Mus musculus with 6 samples.

Results

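The 10 genes of superoxide, peroxide and glutathione defence followed here were measured on all 6 arrays of the series: the superoxide dismutase genes Sod1, Sod2 and Sod3, the catalase gene Cat, the glutathione peroxidase genes Gpx1, Gpx3 and Gpx4, the glutamate-cysteine ligase genes Gclc and Gclm, and the glutathione reductase gene Gsr. A probe was taken for a gene when its transcript identifier belonged to that gene in RefSeq, which gave all 10 genes, out of 19747 genes that could be named on the array, and 12 probes (2 each for Cat and Gsr, 1 for each of the other 8). The soma group held 3 samples of male gonadal somatic cells taken from E13.5 embryos of MCH x C57BL6/J background with the transgene Oct5<delta>PE-GFP, and the ESC group held 3 samples of VR15, 1 male embryonic stem cell line with the transgene Vasa::RFP. The labels call the 3 samples of a group biological replicates without naming separate litters or cultures, so p-values measure the spread between these samples. Neither treatment nor time was varied, and by its title the study asked about energy metabolism in mouse primordial germ cells.

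Superoxide leaks from the respiratory chain and is made by NADPH oxidases. Superoxide dismutases turn it into hydrogen peroxide, which catalase in peroxisomes, glutathione peroxidases and peroxiredoxins then remove. Glutathione peroxidases spend reduced glutathione, a tripeptide built by glutamate-cysteine ligase and glutathione synthetase, and glutathione reductase restores it with NADPH. In gonads and early embryos these enzymes are known as the guard of dividing cells against oxidants produced by their own metabolism.

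Each sample had its own 1-colour array. Below, a level is the processed signal divided by the 75th percentile of the same array, a difference is ESC minus soma on the log2 scale with the SE of a limma fit over 24153 probes, and a gene passed at an adjusted p (Benjamini-Hochberg over these probes) under 0.05. That percentile was a signal of 1245 to 1388 on the soma arrays and 959 to 1016 on the ESC arrays, between 56.8% and 63.9% of gene spots were well above background, and no spot was saturated. Soma 1 and 2 lay on 1 slide, scanned together. The other slide carried soma 3, which had a scan of its own, and the 3 ESC arrays, which were scanned together. Since no scan held both groups, group and scan cannot be told apart. Precision is limited by having 3 arrays per group.

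The 2 groups matched their labels by defining markers, and the soma samples also held RNA of blood cells and of germ cell markers. All 10 pluripotency markers were higher in ESC, among them Pou5f1 (difference 5.98, or 5.35 on the shared slide), while all 10 Sertoli cell, 6 of 6 tested fetal Leydig cell and all 9 interstitial stroma markers were higher in soma. The Sertoli factor gene Sox9 was not well above background on any ESC array. Red cell markers were higher in soma for 8 of the 11 tested, and the other 3 did not pass. The summed red cell level was 929 to 1009 on soma arrays and 0.823 to 0.870 on ESC arrays, with the globin gene Hbb-y and the haem synthesis gene Alas2 not well above background on any ESC array. All 8 macrophage and leukocyte markers tested were higher in soma, with a summed level of 7.55 to 8.07 against 0.844 to 1.12. One of them, C1qa, lost its call on the shared slide alone. Of 8 germ cell markers, 3 passed toward ESC, 2 toward soma, and 3 missed the threshold. The 2 higher in soma were Dazl, 4.16-fold, and Nanos2, at least 16.2-fold, a bound because its probe was not well above background in ESC. All 8 were well above background on at least 1 soma array and 7 on at least 1 ESC array. The summed germ cell level was 6.59 to 11.3 in soma and 11.3 to 12.7 in ESC. Endothelial markers were split, 3 higher in soma and 3 in ESC of 8 (summed level 11.8 to 14.2 in soma and 18.9 to 19.5 in ESC). The part of such other cells in the results that follow was not tested, and in bulk samples fewer cells of a type and less RNA per cell cannot be told apart.

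Of these 10 genes 7 were higher in ESC, Sod1, Sod2, Gpx1, Gpx4, Gclc, Gclm and Gsr, and 3 were higher in soma, Sod3, Gpx3 and Cat. Among all 14202 named genes tested 46.1% were higher in ESC and 40.6% in soma. All 10 passed, as did 86.8% of all genes (by probe, 11 of 12 against 84.7% of all probes kept), and the arrays of the groups did not overlap for any of the 10, as for 89.4% of all genes, so neither count sets these genes apart. A change of at least 2-fold was measured for 9 of them, against 49.1% of all genes: 7 were higher in ESC (24.5% of all genes) and 2 in soma (24.6%). Sod1 fell short of 2-fold under quantile normalization (difference 0.48) and under scaling to the spike-in RNA (0.98). It was at -0.26 with a spot kept that was marked as uneven. The 10 genes were chosen with earlier results of these data known. The median difference of the 10 genes was 1.84, against 0.10 for all genes. The 7 genes higher in ESC encode enzymes of the cytosol and mitochondria, and Sod3 and Gpx3 encode the secreted superoxide dismutase and the plasma glutathione peroxidase.

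**Figure D1:**
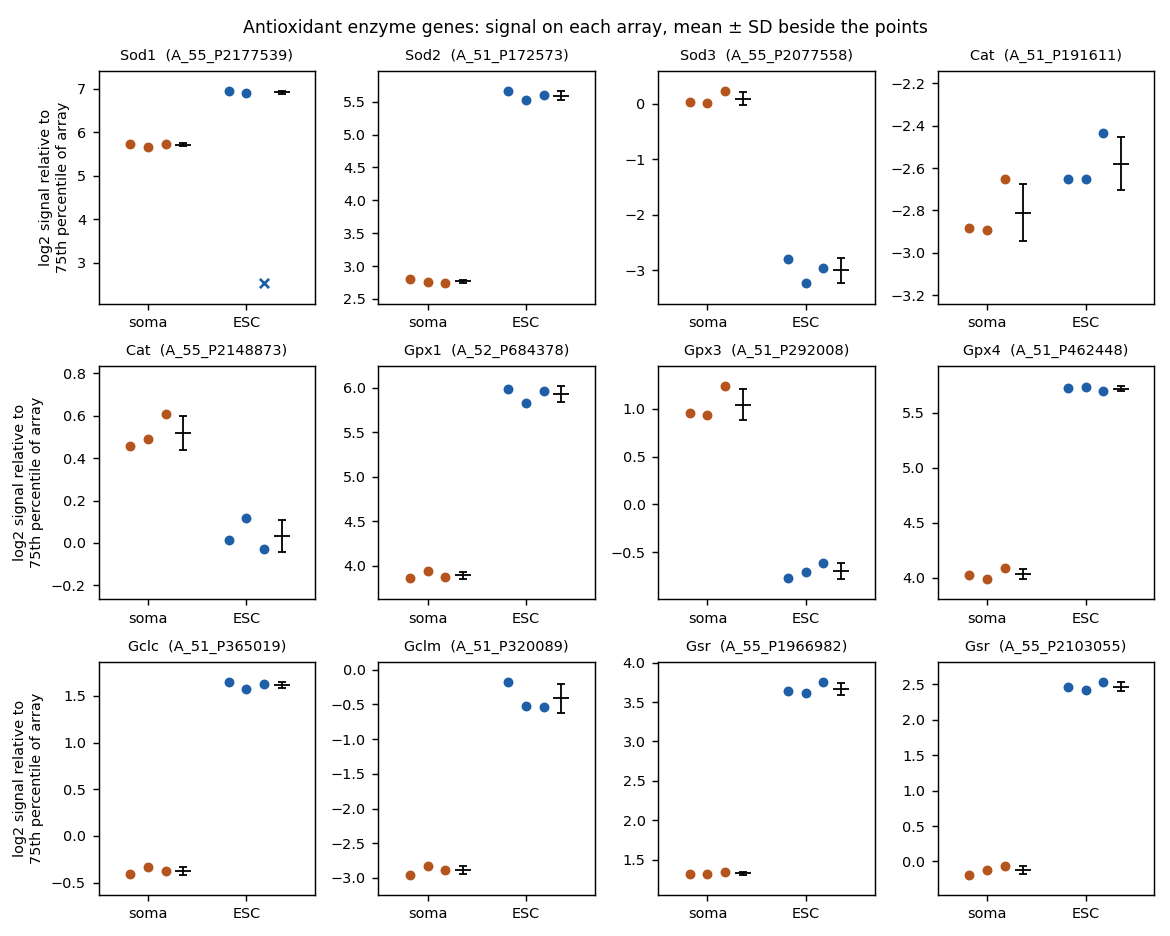
Level of each of the 12 probes on the 3 soma arrays (brown) and 3 ESC arrays (blue), as log2 of the signal over the array's 75th percentile, with a scale of its own in each panel and the group mean ± SD (bar) beside the points. ESC points lie above soma points for Sod1, Sod2, Gpx1, Gpx4, Gclc, Gclm and Gsr and below them for Sod3, Gpx3 and the brighter Cat probe; the cross in the Sod1 panel is a spot marked as non-uniform, which is left out of the mean.

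Both dismutases that work inside the cell were higher in ESC and the secreted one was higher in soma. Sod2, the manganese dismutase of the mitochondrial matrix (probe A_51_P172573), stood at 6.96, 6.74 and 6.69 times the 75th percentile on soma 1 to 3 and at 50.7, 46.0 and 48.5 times on ESC 1 to 3. The lowest ESC array lay far above the highest soma array. Sod2 was 7.11-fold higher in ESC (difference 2.83 ± 0.06, SE, n = 3 per group, adjusted p 3.3e-07), the largest difference toward ESC among the 10 genes at this scaling. Under quantile normalization Gclm, at 2.59, stood above Sod2, at 2.32. Sod3, the copper-zinc dismutase bound to the extracellular matrix (probe A_55_P2077558), had levels of 1.02, 1.02 and 1.17 on soma 1 to 3 and of 0.144, 0.106 and 0.129 on ESC 1 to 3. Its probe stayed well above background on all 6 arrays, and the groups did not overlap. Sod3 was 8.51-fold higher in soma (difference -3.09 ± 0.13, SE, n = 3 per group, adjusted p 3.11e-06). By size, Sod3 was above Sod2 at this scaling and below it when scaled to the array median (-2.89 against 3.03) or after normexp background correction (-2.57 against 2.84). The matrix-rich stroma moved the same way, since all 9 stroma markers were higher in soma, with a summed level of 155 to 179 on soma arrays and 5.53 to 6.29 on ESC arrays, and its part in the Sod3 value was not tested.

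Sod1, the copper-zinc dismutase of the cytosol, rests on 5 arrays. Soma 1 to 3 had levels of 52.9, 50.8 and 53.1, and ESC 1 and 2 had levels of 123 and 118 (probe A_55_P2177539). The spot on ESC 3 carried the scanner software's mark for uneven pixels and read 5.78, below every soma array, so it was left out. Without it Sod1 was 2.30-fold higher in ESC (difference 1.20 ± 0.06, SE, n = 3 soma and 2 ESC arrays, adjusted p 2.15e-05). With that spot kept the difference was -0.26 ± 1.22 (adjusted p 0.85), and the deposited series matrix, which holds the same spot, gave -0.26. Under quantile normalization, with the spot left out, the difference was 0.48. Ccs, the chaperone that loads copper into this enzyme, was 1.49-fold higher in ESC, and Atox1, which carries copper to the secretory route, 2.47-fold (difference 1.30, or 0.67 under quantile normalization). Atp7a, the pump that supplies copper to secreted enzymes, was 7.02-fold higher in soma.

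The antioxidant response element, the site that the transcription factor NRF2 binds with a small MAF partner, has the core TGACNNNGC. It was searched on both strands of RefSeq promoter windows (GRCm38.p6, from 250 bases before to 50 after a transcript start), and 12.4% of the 32851 windows in that table held it, or 14.0% of its 27025 genes in at least 1 window. Windows were there for 7 of the 10 genes (10 windows, 4 of them of Gpx4), and 2 of these genes, Sod1 and Gclm, held 1 match each. They are shown for that reason, both 5′ to 3′ on the gene's strand, with the match in capitals. Both matches read as the reverse complement of the core. The first covers chr16:90220512-90220761 (plus strand) and its match lies 56 to 48 bases before the start. The second covers chr3:122245307-122245486 (plus strand) and stops just before the first base of the annotated gene, which lies within that window, with its match 134 to 126 bases before the transcript start that the window was built on. A match is a description of these letters and does not show binding.
Sod1: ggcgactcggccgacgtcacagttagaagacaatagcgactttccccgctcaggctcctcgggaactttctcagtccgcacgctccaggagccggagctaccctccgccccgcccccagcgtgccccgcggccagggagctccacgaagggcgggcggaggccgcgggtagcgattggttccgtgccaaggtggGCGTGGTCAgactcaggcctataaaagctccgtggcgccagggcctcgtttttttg
Gclm: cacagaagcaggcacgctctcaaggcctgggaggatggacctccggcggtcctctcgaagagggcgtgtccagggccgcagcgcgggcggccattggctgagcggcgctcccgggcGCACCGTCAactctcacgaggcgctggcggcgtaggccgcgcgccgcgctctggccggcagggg

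Catalase, the peroxisomal enzyme that splits hydrogen peroxide into water and oxygen, gave unlike values on its 2 probes, both designed on the transcript NM_009804. On the brighter probe, A_55_P2148873, soma 1 to 3 had levels of 1.37, 1.41 and 1.53, and ESC 1 to 3 of 1.01, 1.09 and 0.980. All 3 soma arrays lay above all 3 ESC arrays, and Cat was 1.40-fold higher in soma (difference -0.49 ± 0.07, SE, n = 3 per group, adjusted p 0.000729), the smallest change among the 10 genes. On the dimmer probe, A_51_P191611, soma 1 to 3 had 0.136, 0.135 and 0.159, and ESC 1 to 3 had 0.159, 0.159 and 0.185. There the highest soma array came just short of the lowest ESC array, and the difference of 0.23 ± 0.10 (SE, n = 3 per group) did not pass (adjusted p 0.0695). The log2 gap between the probes was 3.33 ± 0.06 in soma and 2.61 ± 0.19 in ESC (SD, n = 3 each), and a two-sided exact permutation test of the difference in gap gave p = 0.1, which is the lowest value possible with 3 arrays in each group. The mean of both probes gave -0.13 (adjusted p 0.123), so the call for Cat rests on the choice of probe. Under scaling to the array median the brighter probe gave -0.29 and the dimmer one passed in the opposite direction at 0.43 (adjusted p 0.00856), as it did at 0.39 under quantile normalization (adjusted p 0.0122). Red blood cells are rich in catalase, and the red cell markers given above were higher in soma; their part in the Cat value was not tested.

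Of the 3 glutathione peroxidases, the 2 of the cell interior were higher in ESC, and the plasma form was higher in soma. Gpx1, the abundant enzyme of cytosol and mitochondria (probe A_52_P684378), had levels of 14.6, 15.4 and 14.6 on soma 1 to 3 and of 63.5, 56.7 and 62.3 on ESC 1 to 3. Gpx4, which reduces lipid peroxides within membranes and thereby restrains ferroptosis (probe A_51_P462448), had levels of 16.3, 15.9 and 17.0 on soma 1 to 3 and of 52.7, 53.3 and 51.8 on ESC 1 to 3. For both, every ESC array lay above every soma array. Gpx1 was 4.09-fold higher in ESC (difference 2.03 ± 0.06, SE, n = 3 per group, adjusted p 1.11e-06) and Gpx4 3.21-fold (difference 1.68 ± 0.05, SE, n = 3 per group, adjusted p 9.3e-07). Under quantile normalization the differences were smaller, 1.40 and 1.05. Gpx3, which is secreted into plasma and extracellular fluid (probe A_51_P292008), had levels of 1.95, 1.92 and 2.36 on soma 1 to 3 and of 0.584, 0.611 and 0.654 on ESC 1 to 3. It was 3.35-fold higher in soma (difference -1.75 ± 0.10, SE, n = 3 per group, adjusted p 1.06e-05), with soma 3 the highest array.

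The other members of the peroxidase family were also split. Of 5 such genes 4 could be tested, 2 higher in ESC and 2 in soma, each by at least 2-fold. Of all genes 46.1% were higher in ESC, 40.6% in soma, and 49.1% changed by at least 2-fold. Gpx2, known from the gut epithelium, was 16.2-fold higher in ESC, and Gpx6 at least 2.71-fold, a bound because its probe was not well above background in soma. That probe was kept through the ESC arrays alone. Gpx7 and Gpx8, peroxidases of the endoplasmic reticulum that lack selenocysteine, were 6.04-fold and 8.57-fold higher in soma.

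Gpx1, Gpx3 and Gpx4 carry selenocysteine, which is made and inserted by a dedicated pathway. Genes of selenocysteine synthesis and selenium supply numbered 12, of which 9 had the higher level in ESC and 2 in soma, with 1 that missed the threshold (median difference 1.06). The shares were 75% in ESC and 16.7% in soma, against 46.1% and 40.6% of all genes. Sephs2, which makes the selenium donor, was 6.22-fold higher in ESC (difference 2.64, or 1.88 after normexp background correction). Lrp2, an uptake receptor that also binds selenoprotein P, was 22.4-fold higher in ESC (difference 4.48, or 3.47 after the same correction). Selenop, the secreted carrier of selenium, was 9.98-fold higher in soma, and Selenbp1, a selenium-binding protein, 22.0-fold.

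Both subunits of glutamate-cysteine ligase, the first and limiting step of glutathione synthesis, were higher in ESC. Gclc, the catalytic subunit (probe A_51_P365019), had levels of 0.751, 0.794 and 0.771 on soma 1 to 3 and of 3.13, 2.98 and 3.08 on ESC 1 to 3. Gclm, the modifier subunit that raises the activity of the catalytic one and whose promoter is printed above (probe A_51_P320089), had levels of 0.129, 0.140 and 0.135 on soma 1 to 3 and of 0.885, 0.696 and 0.686 on ESC 1 to 3. The groups were far apart for both genes, and for Gclm ESC 1 stood above the other ESC arrays. Gclc was 3.97-fold higher in ESC (difference 1.99 ± 0.05, SE, n = 3 per group, adjusted p 5.95e-07) and Gclm 5.56-fold (difference 2.48 ± 0.11, SE, n = 3 per group, adjusted p 4.17e-06).

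Gsr, which returns oxidised glutathione to its reduced form, was higher in ESC on both probes. The brighter probe, A_55_P1966982, had levels of 2.50, 2.49 and 2.53 on soma 1 to 3 and of 12.5, 12.2 and 13.51 on ESC 1 to 3, and the other, A_55_P2103055, had 0.880, 0.924 and 0.958 against 5.51, 5.33 and 5.80. Both probes of Gsr were higher in ESC, and the log2 gap between them, -1.45 ± 0.05 in soma and -1.20 ± 0.02 in ESC (SD, n = 3 each), also gave an exact permutation p of 0.1. They gave 5.07-fold (difference 2.34 ± 0.06, SE, n = 3 per group, adjusted p 5.46e-07) and 6.02-fold (difference 2.59 ± 0.06, SE, n = 3 per group, adjusted p 4.81e-07).

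**Figure D2:**
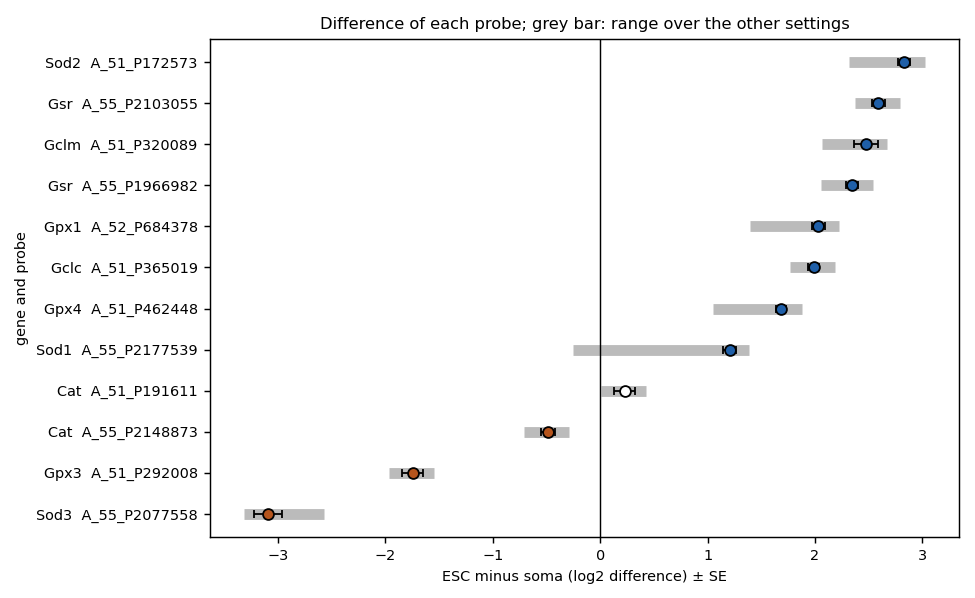
ESC minus soma difference of each probe (log2, x axis) with its SE, filled blue where higher in ESC, brown where higher in soma and white where the limma test did not pass, over the range of that probe under the other processing settings (grey bar). The bars cross 0 for Sod1 alone, where the low end of -0.26 comes from keeping the marked spot, and the dimmer Cat probe nearly reaches 0.

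Genes that feed and turn over glutathione were mostly higher in ESC. Of 17 genes 16 could be tested, 11 higher in ESC, 4 higher in soma and 1 that did not pass (median difference 1.63), with 10 and 3 of them changed by at least 2-fold. By share 68.8% were higher in ESC and 25% in soma, against 46.1% and 40.6% of all genes. Gss, which adds glycine in the last step of synthesis, was 2.88-fold higher in ESC. Cth and Cbs, which make cysteine from homocysteine, were 82.2-fold and 8.36-fold higher in ESC, with the Cth difference of 6.36 at 5.64 after normexp background correction. Oplah, which recovers glutamate from the breakdown product 5-oxoproline, was 4.12-fold higher in soma, and Anpep, an aminopeptidase that acts on outer glutathione fragments, 1.31-fold, a call lost under scaling to the array median. Genes of glutathione breakdown, added after their values were seen, went both ways. Chac1, Ggt6 and Ggct were higher in ESC, at least 362-fold, at least 4.24-fold and 4.97-fold, and Ggt5 was at least 16.5-fold higher in soma. All but Ggct are bounds, because their probes were not well above background in the other group. Slc7a11, the cystine importer, had 1 probe, which did not reach the filter in either group, so it was not tested.

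Peroxiredoxins, thioredoxins and glutaredoxins, which reduce peroxides and protein disulfides, some of them with the help of glutathione, went both ways. Of 17 genes 10 were higher in ESC, 6 in soma and 1 did not pass (median difference 0.69), and 5 rose by at least 2-fold in ESC against 0 in soma. That is 58.8% in ESC and 35.3% in soma, against 46.1% and 40.6% of all genes. At least 2-fold changed 29.4%, against 49.1% of all genes. Prdx1, a cytosolic peroxiredoxin, Txnrd1, the cytosolic thioredoxin reductase, and Srxn1, the sulfiredoxin that repairs overoxidised peroxiredoxins, were 3.53-fold, 3.51-fold and 3.51-fold higher in ESC. Prdx6 was 1.83-fold higher in ESC. Quantile normalization lowered the differences of Prdx1 and Prdx6 from 1.82 and 0.87 to 1.184 and 0.23. The mitochondrial enzymes were split: Prdx3 was 1.54-fold and Txnrd2 1.77-fold higher in soma, and the glutaredoxin gene Glrx2 1.59-fold, while Txn2 and Glrx5, added after their values were seen, were 1.71-fold and 1.61-fold higher in ESC. Prdx2, a major protein of red blood cells, and Prdx4, of the endoplasmic reticulum, were 1.38-fold and 1.41-fold higher in soma, beside the red cell markers given above, whose part was not tested. The Prdx2 difference of -0.46 was -1.09 under quantile normalization. Prdx5 was 1.19-fold higher in soma, a call lost under scaling to the array median and on the shared slide alone.

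The genes listed here as regulators and targets of NRF2 went both ways. Of 16 genes 9 were higher in ESC, 6 in soma and 1 did not pass (median difference 0.32), with 0 at least 2-fold higher in ESC and 2 in soma. The shares were 56.2% in ESC and 37.5% in soma, against 46.1% and 40.6% of all genes. These counts do not cover every NRF2 target. Gclc, Gclm, Gsr, Prdx1, Txnrd1 and Srxn1 were counted under other headings, where their values are given. Nfe2l2, the NRF2 gene, was 1.56-fold higher in ESC, and Keap1, whose protein marks NRF2 for breakdown, 1.39-fold higher in soma. The targets Nqo1 and Hmox1, the quinone reductase and haem oxygenase genes, were 1.65-fold and 1.55-fold higher in ESC, the ferritin gene Ftl1 1.87-fold, and Rbx1, of the ligase that KEAP1 serves, 1.84-fold, although another of its 3 kept probes passed in the opposite direction. Under quantile normalization Ftl1 and Rbx1 had differences of 0.28 and 0.23, against 0.90 and 0.88. Me1, the cytosolic malic enzyme, and Osgin1, a growth inhibitor induced by oxidants, were 9.90-fold and 8.09-fold higher in soma, with the Osgin1 difference of -3.02 at -1.86 after normexp background correction.

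Sources of superoxide and copper carriers made up a list of 18 genes, of which 12 could be tested, 5 higher in ESC and 7 in soma (median difference -0.32). As shares these were 41.7% and 58.3%, against 46.1% and 40.6% of all genes. Noxa1, an activator of NADPH oxidase, was 4.94-fold higher in ESC, and Nox4, an oxidase that makes hydrogen peroxide, 3.77-fold higher in soma. Among the enzymes that supply NADPH, 11 of 12 genes could be tested, 6 higher in ESC, 4 in soma and 1 that did not pass (median difference 0.27). Here the shares were 54.5% in ESC and 36.4% in soma, against the same 46.1% and 40.6% of all genes. G6pdx, the entry enzyme of the pentose phosphate pathway, was 1.81-fold and the folate enzyme gene Mthfd1 6.82-fold higher in ESC, while Idh2 and H6pd, of mitochondria and endoplasmic reticulum, were 4.93-fold and 5.31-fold higher in soma. Nnt, the mitochondrial transhydrogenase, had 0 probes that could be named on the array, so it was not tested.

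Peroxisomal genes, whose products surround catalase in the cell, were balanced. Of 27 genes 26 could be tested, 10 higher in ESC, 12 in soma and 4 that did not pass. That is 38.5% in ESC and 46.2% in soma, against 46.1% and 40.6% of all genes. The median difference of the list was -0.02, or 0.18 under scaling to the array median and -0.24 under scaling to the spike-in RNA. Pex2, which encodes an import factor, was 2.11-fold higher in soma. Phyh, which encodes a hydroxylase of branched fatty acids, was 1.63-fold higher in ESC. Pex5, the receptor that brings catalase in, was 1.22-fold higher in soma, a call lost under scaling to the array median.

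**Figure D3:**
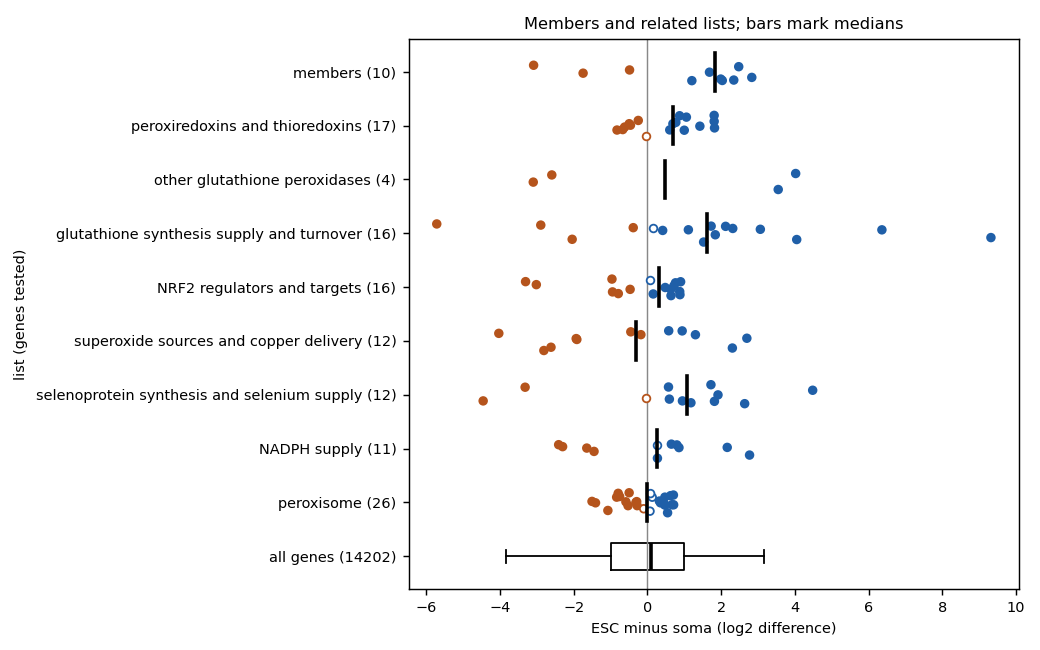
ESC minus soma difference (log2, x axis) of the 10 genes (top line, members) and of the genes tested from each related list; each point is a gene by its brightest kept probe, blue where higher in ESC and brown where higher in soma, open where the test did not pass, black bars are medians, and the box shows the quartiles of all 14202 genes with whiskers at the 5th and 95th percentile. The median is 1.84 for the 10 genes, 1.63 for glutathione synthesis supply and turnover, -0.02 for peroxisomal genes and 0.10 for all genes.

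Set among all genes tested, the 10 differences ranged from the middle to the outer parts of the distribution. The Sod2 difference lay above that of 93.6% of genes, Gclm above 92.2%, Gsr above 91.6%, Gpx1 above 89.6%, Gclc above 89.3%, Gpx4 above 86.2% and Sod1 above 79.3%. Sod3 lay above 7.78% of genes, Gpx3 above 16.2% and Cat above 34.7%. By size alone, with the sign left aside, Sod3 exceeded 87.0% of genes and Cat 27.0%.

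**Figure D4:**
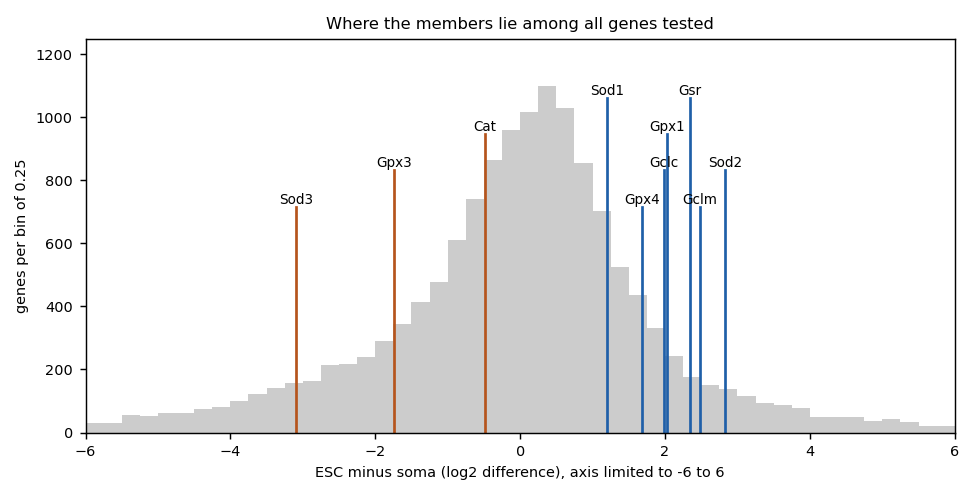
Histogram of the ESC minus soma difference (log2, x axis, shown from -6 to 6, bins of 0.25) of all genes tested, with the number of genes on the y axis; vertical lines mark the 10 genes, blue where higher in ESC and brown where higher in soma, and line height carries no value. Sod2 lies above 93.6% of genes and Sod3 above 7.78%, with the other 8 between them.

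Replicate arrays differed by far less than the groups did. Averaged per array as the median deviation of the 10 genes from their group mean, soma 1 to 3 stood at -0.03, -0.02 and 0.02 and ESC 1 to 3 at 0.03, -0.05 and 0.01 on the log2 scale. Single genes deviated by more. Sod3 deviated by 0.20 on ESC 1 and -0.24 on ESC 2, and Gclm by 0.24 on ESC 1. Within soma, Gpx3, Sod3 and Cat were highest on soma 3 (0.19, 0.14 and 0.09), as were Gpx4, Sod1 and Gsr by 0.05 or less. Soma 3 is the array on the other slide, and it also had the highest summed levels of stroma (179 against 162 and 155 on soma 1 and 2), red cell (1009 against 929 and 956), germ cell (11.3 against 6.59 and 8.49) and macrophage markers (8.07 against 7.80 and 7.55). The part of these in the deviations was not tested. On the slide that holds both groups, soma 3 alone (n = 1) against the ESC arrays, where soma 3 is assumed to vary like the rest, all 10 genes kept direction and call on their brightest probe, with Sod2 at 2.85, Gpx1 at 2.05, Gclm at 2.47, Gpx3 at -1.94 and Sod3 at -3.23.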

How the data were processed

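Total RNA (100 ng) of each of the 6 samples was labelled with Cy3, with spike-in RNA added, per the labels' protocols. The processed signal was made with Feature Extraction 10.7.3.1, per the file headers, an intensity corrected for background within the array and not scaled between arrays. A deposited value table of the whole series holds log2 values less the array's 75th percentile and each probe's median (at least 99.5% of probes within 0.01 of that calculation), and it served as an alternative.

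The log2 processed signal was scaled to each array's 75th percentile. The mean was taken over repeated spots of a probe, without control spots (1377) and outlier spots (180 to 223 gene spots per array). This left 15 probe values empty. Probes were kept when well above background on all arrays of at least 1 group (24153 of 39429). Symbols came from RefSeq transcripts of GRCm38.p6 (66.1% of probes). A gene was read by its brightest kept probe, and a gene dim on every array of 1 group got a bound, against the lowest signal well above background. Medians and counts of 2-fold changes used the differences without bounds. The comparison was a limma 3.58.1 fit (R 4.3.3), checked on simulated data. Lists were counted, with no set test. From each related list the 2 largest passing differences in each direction among genes well above background on all arrays were named, with further genes fixed by name. Some genes that this rule names are not reported here. The members and lists were chosen with earlier results of these data known. Alternatives covered normalization, background correction (normexp, offset 50), filters, variance model, slide, scan, replicate number, probe choice and each array left out.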

Additional observations from a re-analysis of the deposited data

How the results depend on the processing

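Over 20 other settings of the probe-level comparison, 232 of the 238 values of the 12 probes kept their direction and their side of the threshold. The 10 probes other than those of Sod1 and the dimmer one of Cat did so under every setting run, with a largest adjusted p of 0.00857. Sod1 stood at -0.26 with the series matrix values and at -0.26 with marked spots kept, a setting added after that spot was seen, and at 0.48 to 1.39 under the 18 settings that leave the spot out. The dimmer Cat probe passed at 0.39 under quantile normalization and at 0.43 under scaling to the array median, and lay between 0.16 and 0.31 with each array left out in turn, passing without soma 3. A further setting, the mean of all kept probes of a gene, gave -0.13 for Cat, which did not pass. The replicate number was tried as a block; same-numbered arrays did not deviate together (correlations of -0.04, 0.06 and 0.02), and with the block the dimmer Cat probe passed at an unchanged 0.23 while 12092 genes passed in place of 12325. Scaling to the array median moved the median of all genes by 0.20, and spike-in scaling by -0.22, and the median of the 10 genes less that of all genes lay between 1.21 (quantile normalization) and 1.75. The cause of these shifts was not tested. The dimmest values, those of the dimmer Cat probe, of Sod3 in ESC and of Gclm in soma, were well above background on every array, and the SEs of these probes were 0.10 to 0.13, against 0.05 to 0.10 for the others.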
